A study of Mus musculus with 6 samples.

Results

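The cytotoxic effector genes described here were granzymes A, B and K (Gzma, Gzmb, Gzmk), perforin (Prf1), the granule protein gene Nkg7, the chemokine Ccl5, the T-box transcription factors Eomes and Tbx21, and interferon gamma (Ifng). They were chosen by symbol, and all 9 of 9 were found once in the count matrices. Their unique molecular identifiers (UMIs, 1 per captured transcript) were followed in natural killer (NK) cells, CD8 T cells, CD4 T cells and gamma delta T cells, with old set against young in each treatment. These classes held 245, 369, 129 and 240 of 12224 kept cells.

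Cells came from the soleus, a postural hindlimb muscle, of male C57BL/6 mice aged 4 to 5 months (young) or 20 to 22 months (old). Mice were ambulatory controls, underwent hindlimb unloading (HU), or were reloaded for 4 days after HU. Muscles were pooled by group, from 10 (young) and 20 (old) mice in control, 8 and 10 after HU, and 10 and 10 at reload, and CD45+ DAPI− cells, which are live leukocytes, were sorted for 3′ single-cell sequencing. Every group was therefore 1 library of pooled mice, and no difference within a treatment could be tested.

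Killer lymphocytes store perforin and granzymes in granules and release them at the contact with a target cell, where perforin opens the membrane and granzymes cleave proteins inside. Granzyme B starts cell death, whereas granzymes A and K have trypsin-like activity and are also linked to inflammation. Granzyme K marks memory T cells, and T cells that express it have been described to build up in aged tissues.

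The members lie apart in the genome, with the exception of Gzma and Gzmk. In GRCm38 and GENCODE vM21 coordinates, Gzma is at chr13:113093825-113100981 and Gzmk at chr13:113171608-113225908, both protein-coding and on the minus strand. By their RefSeq starts they are 79.984 kb apart. Gzmb is at chr14:56258838-56262260 on the minus strand, and Prf1 and Ifng, both on chromosome 10 and the plus strand, are at chr10:61297833-61304680 and chr10:118441046-118445892.

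The promoters of the 3 granzymes are shown because Gzma and Gzmk, neighbours on 1 chromosome, differed in the cells that carried them. Each run is the 250 bases before the RefSeq start in the direction of the gene (GRCm38.p6), and capitals mark the letters TCACAC of a T-box element or TGTGGT of a RUNX site, on either strand.
Gzmk (chr13:113180966-113181215): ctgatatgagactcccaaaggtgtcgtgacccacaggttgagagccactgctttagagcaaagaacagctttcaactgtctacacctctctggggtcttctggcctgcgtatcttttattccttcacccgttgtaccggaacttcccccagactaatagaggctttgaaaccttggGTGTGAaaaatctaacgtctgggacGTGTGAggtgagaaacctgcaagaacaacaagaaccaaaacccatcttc
Gzma (chr13:113100982-113101231): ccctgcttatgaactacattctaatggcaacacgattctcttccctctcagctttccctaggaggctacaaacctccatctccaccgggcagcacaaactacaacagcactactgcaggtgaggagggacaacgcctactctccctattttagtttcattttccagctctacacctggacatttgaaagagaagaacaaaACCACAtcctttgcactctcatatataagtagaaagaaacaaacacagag
Gzmb (chr14:56262335-56262584): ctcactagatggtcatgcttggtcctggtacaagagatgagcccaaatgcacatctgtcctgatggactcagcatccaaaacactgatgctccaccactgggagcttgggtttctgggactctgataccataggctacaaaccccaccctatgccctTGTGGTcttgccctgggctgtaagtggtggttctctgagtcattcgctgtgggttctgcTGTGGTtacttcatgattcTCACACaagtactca
The Gzmk window held 2 T-box matches and 0 RUNX matches, the Gzma window 0 and 1, and the Gzmb window 1 and 2. Of 32851 promoter windows in the reference, 12.3% held the T-box letters and 14.0% the RUNX letters. Of the 8 members with a window, 3 held the former and 4 the latter. A match describes letters only and is no sign of binding.

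The libraries held 1675 to 3676 barcodes and 5782054 to 22749375 UMIs, of which 1496 to 2567 cells were kept at no more than 10% mitochondrial UMIs. Both control libraries were sequenced in 1 run and the other libraries in another, so run and treatment cannot be told apart wherever control is set against HU or reload. Of markers the gates had not used, Tcrg-V6 was in 75.8% and Cd163l1 in 89.2% of gamma delta T cells, Klra4 in 42.4% of NK cells and 0 CD8 T cells, and Trac in 39.6% of CD8 T cells, 50.4% of CD4 T cells, 9.17% of gamma delta T cells and 2.45% of NK cells. Others did not part the classes as sharply, as Trbc2 was in 58.3% of CD8 T cells but also in 48.3% of gamma delta T cells and 22.4% of NK cells, and the delta chain gene Trdv4 was in 11.8% of NK cells. Young HU held only 3 NK, 4 CD8 and 2 CD4 T cells, and old reload only 9 NK and 9 CD4 T cells. Old and young were compared where both libraries held at least 10 cells, which left NK, CD4 T and gamma delta T cells in control, CD8 T cells in control and reload, and gamma delta T cells after HU.

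The young and old control libraries shared 40 barcodes of kept cells, while other pairs of libraries shared 3 to 9. In 35 of the 40 the UMI totals in both libraries were within 10% of each other, and their median total was 768.5 UMIs. A subcluster led by the cell cycle genes Pclaf, Birc5 and Ube2c held 34 of them in young control and 36 in old control. Among gated CD8 T cells, 17 of 51 in young control and 19 of 220 in old control had a shared barcode, so the members' ratios in control CD8 T cells are given with and without barcodes found in more than 1 library. Why the barcodes were shared was not tested.

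Levels are given below as CPM, the UMIs of a gene divided by all UMIs of the class in that library and scaled as counts per 1e6. The young control and young HU libraries carried more heat-shock transcript than the old ones. Hspa1a, an inducible chaperone, was at 2497 CPM in young against 21.2 CPM in old control NK cells, at 791 against 56.0 CPM in CD8 T cells, and at 2793 against 55.3 CPM in CD4 T cells. In T and NK cells summed it was at 2538 CPM in young against 136 CPM in old HU, and at 108 against 83.7 CPM at reload. An NK subcluster led by Hspb1, Hspa1b and Hspa1a held 30 cells, all of young control. The part of this in the results below was not tested, except where values without those cells are given.

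Over the 6 libraries summed, NK cells held the largest share of Gzma, Prf1, Eomes and Gzmb, namely 78.7% of 11439 Gzma UMIs, 69.8% of 788 Prf1 UMIs, 57.4% of 559 Eomes UMIs and 45.4% of 3110 Gzmb UMIs. The sums are led by the control libraries, and in old reload NK cells held only 39.7% of Gzma, 29.4% of Prf1 and 15.6% of Gzmb, while in young reload 74.1% of Gzmb lay in cells outside the gates. Gzmk was distributed otherwise: of its 610 UMIs, 53.0% lay in CD8 T cells, 22.1% in CD4 T cells, 13.1% in other T cells, 0.8% in NK cells and 0% in gamma delta T cells. Ccl5 was divided between NK cells (34.6%) and CD8 T cells (33.5%), and Ifng had its largest share in CD8 T cells (32.2%). Both orders differed between libraries: young control had 68.4% of Ccl5 in NK and 12.2% in CD8 T cells, against 32.6% and 40.5% in old control, and for Ifng the shares were 48.8% and 11.6% in young control against 12.2% and 35.5% in old control. Of all Gzmk UMIs, 493 came from old control, while young control gave 13, young HU 2, old HU 33, young reload 32 and old reload 37.

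**Figure D1:**
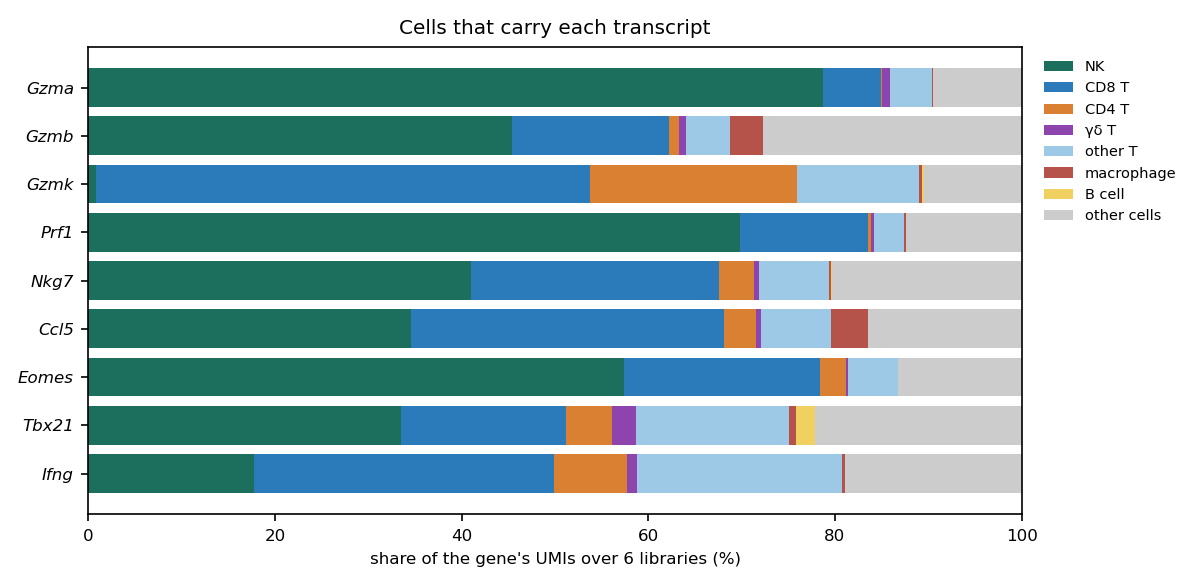
Share of each gene's UMIs over the 6 libraries (x axis, %) that lay in each gated class, with 1 bar per gene. NK cells held 78.7% of Gzma but 0.8% of Gzmk, of which CD8 T cells held 53.0%.

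NK cells of young and old control carried similar levels of most effector genes. Gzma was at 9968 CPM in 79 young and 11467 CPM in 124 old control NK cells, a log2 ratio of 0.20 (exact 95% interval 0.14 to 0.27, for counting error only). It was at 12499 CPM in old HU and 4781 CPM in young reload, and had 0 UMIs in the 3 NK cells of young HU and in that whole library. Gzma was present in 88.9% to 94.9% of cells in the NK groups with at least 10 cells.

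The other granule genes stayed within 2-fold by age in these cells. Gzmb was at 1994 CPM in young and 1590.0 CPM in old control (log2 ratio −0.33, −0.49 to −0.16), 1330.4 CPM in old HU and 884 CPM in young reload. Prf1, the pore-forming protein, was at 655 and 695 CPM in young and old control (0.09, −0.18 to 0.36), and Nkg7, which takes part in granule release, at 3438 and 3919.96 CPM (0.19, 0.07 to 0.30). Gzmk was nearly missing, with 0 UMIs in 79 young cells, which allows a UMI in up to 3.80% of such cells, and 4 UMIs in 3 of 124 old cells.

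Ccl5, a chemokine that draws T cells and monocytes, was at 26558 CPM in young and 30522 CPM in old control NK cells (log2 ratio 0.20, 0.16 to 0.24), at 51815 CPM in old HU and at 13289 CPM in young reload. Of the 2 T-box factors, which drive NK maturation and effector genes, Eomes was lower in old control, while the interval of Tbx21 included 0. Eomes was at 528 CPM in young and 295 CPM in old control (−0.84, −1.19 to −0.49), and Tbx21 at 238 and 276 CPM (0.21, −0.23 to 0.67). In old HU Tbx21 had 0 UMIs in 12 cells, while Eomes had 9.

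Ifng, the cytokine that activates macrophages, was the only member past 2-fold in NK cells, at 219.5 CPM in young and 106 CPM in old control (log2 ratio −1.05, −1.62 to −0.48). Of all 4086 genes measured in this comparison, 9.23% were past 2-fold, against 1 of 8 members. Young control NK cells of the heat-shock subcluster had Ifng at 486 CPM, and those outside it 122 CPM. Without that subcluster the Ifng log2 ratio was −0.20. Gzma (10769 against 9674 CPM) and Ccl5 (28573 against 25820 CPM) differed less between those cells, while Prf1 was at 389 CPM in the subcluster and 752 CPM outside it. Eomes was at 722 CPM in the subcluster and 458 CPM outside it, and Tbx21 at 167 and 264 CPM.

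Of genes from the lists around the members, NK cells moved few past 2-fold. Over all 4086 genes measured the share was 9.23%, with 225 higher and 152 lower in old. Of 10 measured genes for other granzymes and granule release, 4 for death ligands and granzyme inhibitors, 7 effector regulators, 7 naive and memory genes, 2 genes of repeated stimulation and 5 cytokine receptors, 0 were past 2-fold. In the list of cytokines and chemokines 2 of 3 were lower in old, among them Ccl3 (−1.41, −2.01 to −0.82). In the other lists, 1 of 8 NK receptor genes, 1 of 5 homing and residence genes and 2 of 6 genes of the early response to tissue digestion, Hspa1a (−6.88) and Jun (−2.65), were lower. H2-Aa, an antigen presentation gene in the dendritic cell list, was at 458 CPM in old against 14.9 CPM in young, with Flt3 and Cd209a at 0 in both, as the gate required.

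**Figure D2:**
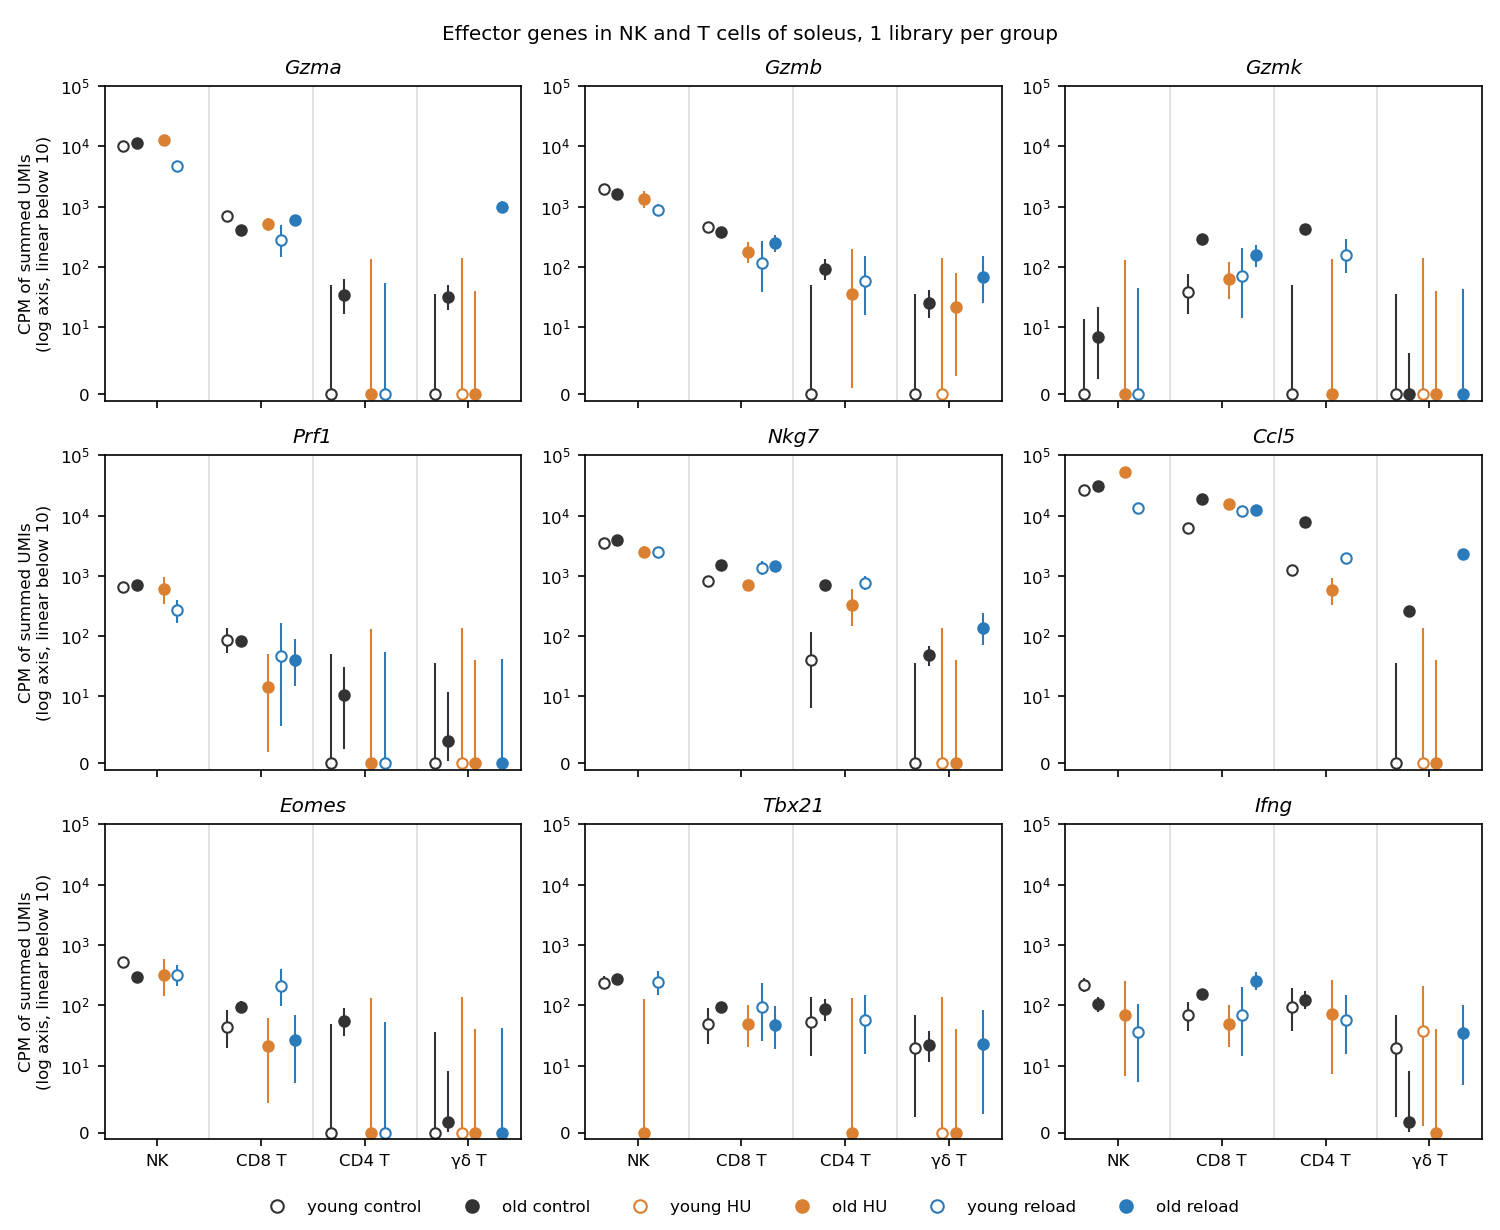
CPM of each effector gene (y axis, logarithmic above 10 and linear below) in each class (x axis) and library, shown where a library held at least 10 cells of the class. Points are single pooled libraries with exact 95% Poisson intervals, open for young and filled for old. Gzma reached 11467 CPM in old control NK cells and Gzmk 429 CPM in old control CD4 T cells.

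In CD8 T cells, Gzmk was the member that differed most by age in control. It was at 38.8 CPM in young control (8 UMIs in 51 cells) and 289.5 CPM in old control (279 UMIs in 220 cells), 7.46-fold higher in old (log2 ratio 2.90, 1.90 to 4.13). Without shared barcodes the levels were 31.4 CPM in 34 young cells and 296 CPM in 201 old cells (3.24, 2.10 to 4.70). A Gzmk UMI was found in 9.80% of young control CD8 T cells (exact 95% binomial interval 3.26 to 21.4%) and in 29.5% of old ones (23.6 to 36.0%), or 8.82% and 32.3% without shared barcodes. Thinned to 1000 UMIs per cell, with 15 young and 12 old cells under that depth left out, the shares were 8.39% and 18.8%, and without shared barcodes 4.55% and 19.6%. The background in macrophages, which should lack the gene, was 0 of 539 cells in young control, which allows up to 0.557%, and 1 of 571 in old control, at median depths of 8573 and 8238 UMIs in macrophages against 4247 and 3740.5 UMIs in CD8 T cells.

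After HU and at reload the libraries held fewer CD8 T cells. Gzmk was at 64.1 CPM in 44 cells of old HU, of which 9.09% had a UMI (2.53 to 21.7%), and had 1 UMI in 4 cells of young HU. At reload it was at 69.8 CPM in 10 young cells (3 UMIs) and 155 CPM in 40 old cells (23 UMIs), a log2 ratio of 1.15 whose interval of −0.57 to 3.53 included 0. Shares of cells with a UMI at reload were 20.0% (2.52 to 55.6%) in young and 27.5% (14.6 to 43.9%) in old. The Poisson interval of old control (257 to 326 CPM) lay above those of the other libraries with at least 10 cells, and that of old reload (98.5 to 233 CPM) overlapped those of old HU (29.3 to 122 CPM) and young reload (14.4 to 204 CPM) but not that of young control (16.8 to 76.5 CPM).

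**Figure D3:**
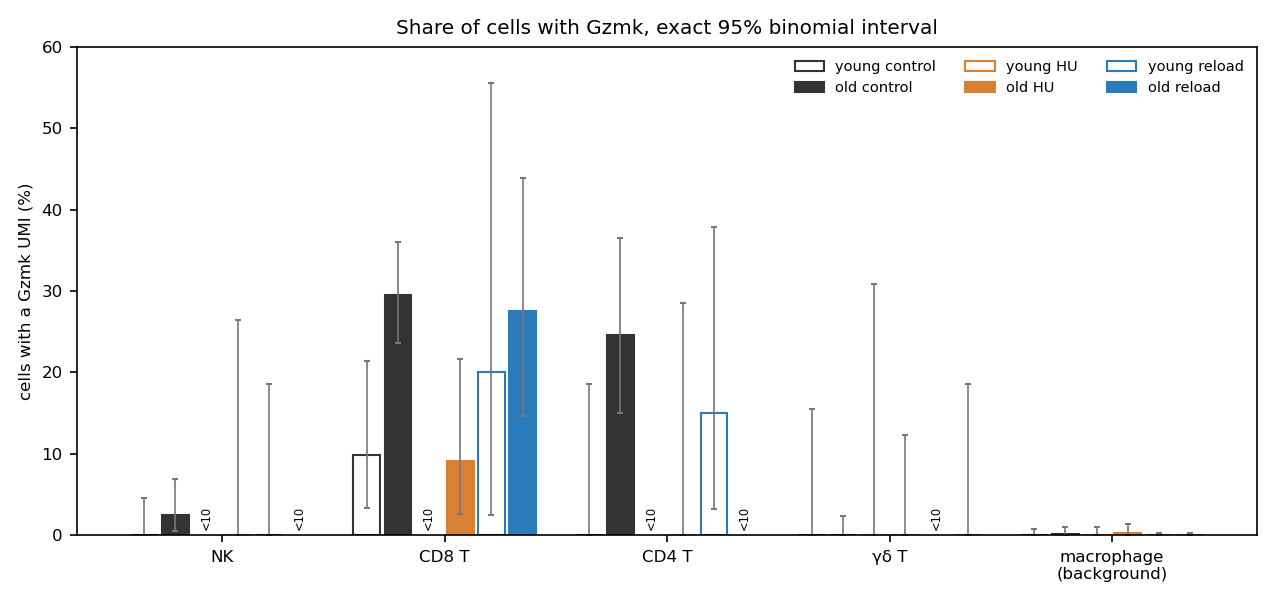
Share of cells with at least 1 Gzmk UMI (y axis, %) in each class and library, with exact 95% binomial intervals and macrophages as background. Groups under 10 cells are marked and not drawn. The share was 29.5% in CD8 T cells of old control and 9.80% in those of young control.

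Granzymes A and B did not follow Gzmk in control CD8 T cells. Gzma was at 708 CPM in young and 409.9 CPM in old control (log2 ratio −0.79, −1.07 to −0.51), and at 764 and 418 CPM without shared barcodes (−0.87, −1.15 to −0.58). Its UMIs lay in few cells, 5 of 51 in young and 28 of 220 in old (5 of 34 and 27 of 201 without shared barcodes). When CD8 T cells lying in the heat-shock subcluster were left out the ratio was −0.25, and within named CD8 T subclusters it was 0.05. Those named subclusters included the one led by cell cycle genes, with 46 young and 50 old control cells. It held most barcodes shared by the 2 control libraries, so the 0.05 is no check free of them. Gzmb was at 456 CPM in young and 378 CPM in old control (−0.27, −0.60 to 0.07), but at 193 and 323 CPM without shared barcodes, which turned the ratio to 0.74 (0.24 to 1.27).

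At reload the granzymes were each a little over 2-fold higher in old CD8 T cells, from few UMIs. Gzma was at 279 CPM in young (12 UMIs, 11 of them in 1 cell) and 594 CPM in old (log2 ratio 1.09, 0.21 to 2.10), and Gzmb at 116 and 249.8 CPM (1.10, −0.25 to 2.81). In old HU, Gzma was at 506 CPM, with its 71 UMIs in 2 of 44 cells, and Gzmb at 178 CPM.

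Perforin was low in CD8 T cells and did not part the ages. Prf1 was at 87.3 CPM in young and 82.0 CPM in old control (log2 ratio −0.09, −0.84 to 0.74), and at 31.4 and 40.3 CPM without shared barcodes (0.36, −0.89 to 1.90). At reload 8 Prf1 UMIs in the pair were too few to compare.

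Nkg7 and Ccl5 were higher in old CD8 T cells of control and level at reload. Nkg7 was at 810.1 CPM in young and 1538 CPM in old control (log2 ratio 0.92, 0.69 to 1.16), and 1.34 (1.07 to 1.63) was the ratio without shared barcodes. Ccl5 was at 6190.1 CPM in young and 18547 CPM in old control, 3.00-fold higher (1.58, 1.501 to 1.67, and 1.54, 1.46 to 1.63 without shared barcodes). At reload Nkg7 was at 1373 and 1459 CPM (0.09, −0.33 to 0.53), and Ccl5 at 11704 and 12236 CPM (0.06, −0.08 to 0.21). Old HU had Ccl5 at 15746 CPM and Nkg7 at 705 CPM.

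The transcription factors and Ifng were also higher in old control CD8 T cells, with wide intervals. Eomes was at 43.7 CPM in young and 95.5 CPM in old (log2 ratio 1.13, 0.14 to 2.30, and 1.05, 0.07 to 2.23 without shared barcodes), and Tbx21 at 48.5 and 92.4 CPM (0.93, −0.02 to 2.04, and 1.006, 0.02 to 2.18 without). Ifng was at 67.9 CPM in young and 152 CPM in old (1.16, 0.36 to 2.06), and without shared barcodes its ratio was 2.37 (1.11 to 4.01), from 5 young and 127 old UMIs. At reload Ifng was at 69.8 CPM in young, from 3 UMIs in 1 cell, and 257 CPM in old, where 23 of 38 UMIs were in 1 cell (1.88, 0.22 to 4.22).

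In control CD8 T cells 4 of 9 members were past 2-fold, all higher in old, against 18.3% of 4913 genes, of which 730 were higher and 167 lower. The median log2 ratio was 0.93 over the members and 0.21 over all genes. Without shared barcodes 6 of 9 members were past 2-fold, all higher, against 20.6% of 4762 genes. Nkg7 and Tbx21 were the members that this added. At reload 4 of 6 measured members were past 2-fold, all higher, against 17% of 973 genes. Eomes, Tbx21 and Prf1 had too few UMIs to be measured there, and their levels were lower in old. Eomes was at 209 CPM in young (9 UMIs, all in 1 cell) and 27.0 CPM in old (4 UMIs). Tbx21 was at 93.1 and 47.3 CPM, and Prf1 at 46.5 and 40.5 CPM.

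**Figure D4:**
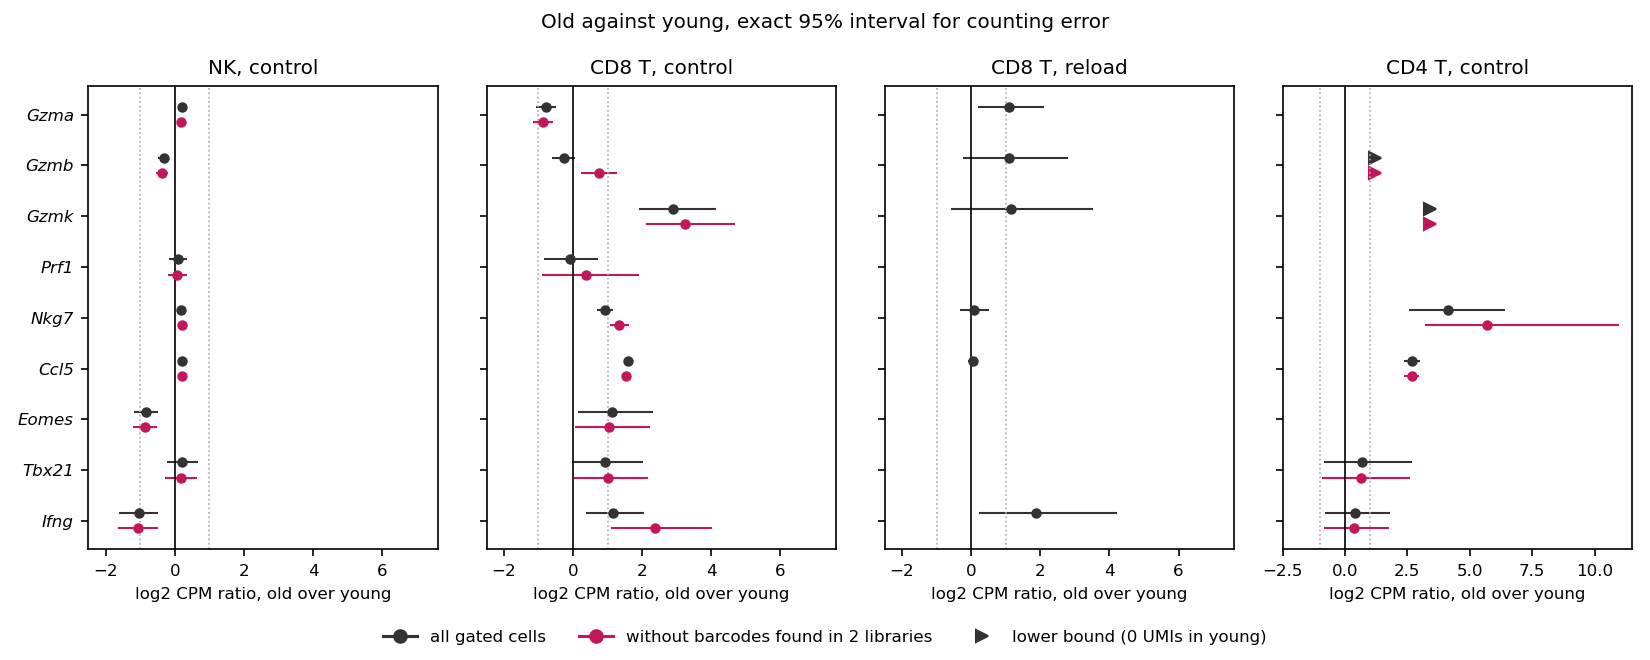
The log2 ratio of CPM, old over young (x axis), for each effector gene with at least 20 UMIs in the pair of libraries, in 4 comparisons. Bars are exact 95% intervals for counting error, triangles are lower bounds and dotted lines mark 2-fold. Gzmk in CD8 T cells of control was at 2.90 with all gated cells and 3.24 without shared barcodes.

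List genes moved both ways in control CD8 T cells, where 18.3% of all 4913 genes were past 2-fold. Past 2-fold, with higher and lower genes among those measured, were 2 and 2 of 13 other granzyme and granule release genes, 1 and 0 of 4 death ligand and inhibitor genes, 1 and 1 of 7 NK receptor genes, 1 and 1 of 6 effector regulators, and 1 and 2 of 11 naive and memory genes. Of genes linked to repeated stimulation of the receptor 2 and 0 of 6 were, of cytokines and chemokines 0 and 2 of 4, of cytokine receptors 2 and 0 of 5, of homing and residence genes 3 and 0 of 6, and of the digestion response 1 and 2 of 6. The highest were Gzmm, another granzyme (log2 ratio 2.92, 1.33 to 5.22), Rab27a, which tethers granules (2.17, −0.47 to 7.54), and Bhlhe40, a regulator of cytokine genes (1.98, 0.97 to 3.22), with the inhibitory receptor gene Ctla4 at the same ratio (0.03 to 5.08). The lowest were Hspa1a (−3.82), the NK receptor gene Cd160 (−1.94, −3.34 to −0.49) and the chemokine Xcl1 (−1.85, −3.15 to −0.50). Without shared barcodes Gzmm was at 2.84, Rab27a at 2.09, Bhlhe40 at 2.55, Xcl1 at −1.92 and Hspa1a at −3.89, Ctla4 had 36 old and 0 young UMIs (at least 1.28), and Cd160 had too few UMIs to compare. The granule release genes were then 2 and 0 of 9, those of repeated stimulation 3 and 0 of 5, cytokines and chemokines 1 and 1 of 3, and homing and residence genes 4 and 0 of 6. Macrophage, B cell, neutrophil and dendritic cell genes had 0 measured members, and their summed levels were at most 34.0 CPM in control CD8 T cells, with Csf1r, Adgre1, Cd79a, Ms4a1, Csf3r, Flt3 and Cd209a at 0 as the gate required.

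At reload 4 of 7 measured naive and memory genes were higher in old CD8 T cells, among them Il7r, a receptor for a survival cytokine (1.92, 0.26 to 4.25), and Lef1, a factor of naive T cells (1.72, 0.05 to 4.06). Serpinb6b, a protease inhibitor, was lower (−2.61, −3.98 to −1.35), as was Rgs1, a regulator of chemokine signalling (−1.71, −2.69 to −0.73), and the stress gene Fos was the list gene with the highest ratio (2.36, 0.73 to 4.68). The young side was 10 cells, with 3 UMIs each of Il7r, Lef1 and Fos. Of all 973 genes measured, 17% were past 2-fold.

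In single CD8 T cells Gzmk transcripts fell together with some of the other members, but not with Tbx21 or Ifng in old control. In old control, without shared barcodes, 65 CD8 T cells with a Gzmk UMI and 136 without one had medians of 3419 and 4520.5 UMIs per cell. All 65 had a Ccl5 UMI, against 80.1% of the others, and 98.5% had Nkg7, against 85.3%. Eomes was in 43.1% (30.8 to 56.0%) and 16.9% (11.03 to 24.3%), and Prf1 in 23.1% (13.5 to 35.2%) and 7.35% (3.58 to 13.1%), so that neither pair of intervals overlapped. Gzma in 21.5% and 9.56%, Gzmb in 44.6% and 33.1%, Ifng in 26.2% and 22.8%, and Tbx21 in 23.1% and 30.9% had overlapping intervals. The intervals treat cells of the same pooled library as independent, so whether they overlap is no test of a link. The share of all genes with intervals apart is not given, and list genes also differed between these cells, as described below. The part of depth in these shares was not tested.

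Cells with Gzmk also differed in list genes, which were named here after their values had been seen and are given as a description. Pdcd1, an inhibitory receptor, was at 197.5 CPM in them and 21.4 CPM in the other cells (log2 ratio 3.20, 2.34 to 4.16), Tox, a factor of chronically stimulated T cells, at 146 and 16.8 CPM (3.11, 2.13 to 4.22), and the inhibitory receptor Tigit at 527 and 64.3 CPM (3.03, 2.53 to 3.56). Nr4a2, induced by receptor signalling, was in 95.4% and 44.1% of cells. The naive T cell genes Ccr7 (62.4 and 268 CPM) and Satb1 (69.3 and 309 CPM) were lower in the cells with Gzmk. In old reload, 11 cells with Gzmk and 29 without had Tigit in 9.09% and 10.3%, Gzma in 45.5% and 6.90%, and Ifng also in 45.5% and 6.90%. Eomes was there in 9.09% and 6.90%, and Prf1 in 9.09% and 13.8%. Pdcd1 was in 18.2% and 0% of these cells (2 and 0 UMIs), Tox in 18.2% and 6.90% (4 and 3 UMIs), and Nr4a2 in 63.6% and 41.4%. Ccr7 was in 0% and 41.4%, and Satb1 in 9.09% and 48.3%.

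**Figure D5:**
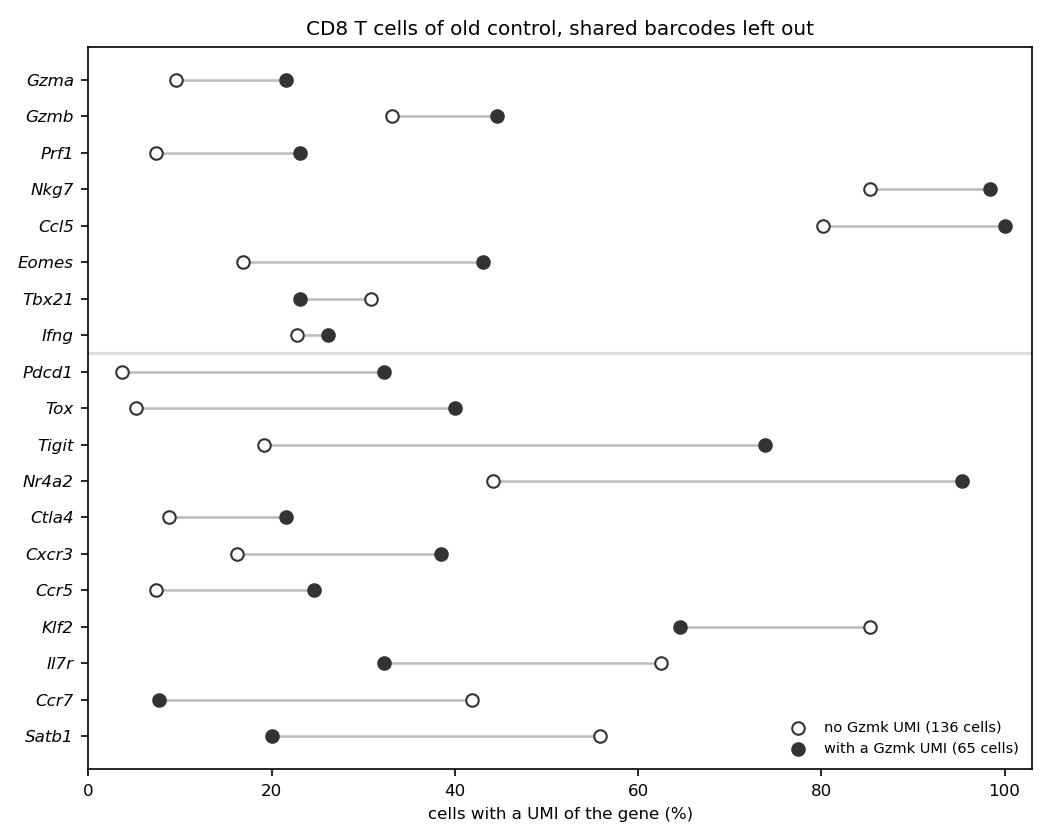
Share of CD8 T cells of old control with a UMI of each gene (x axis, %), filled for 65 cells with a Gzmk UMI and open for 136 cells without one. The 8 other effector genes stand above the line and list genes below it. Eomes was in 43.1% against 16.9% and Tigit in 73.8% against 19.1%.

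Clustering of the lymphoid cells without the members or other granzymes placed Gzmk in 1 main subcluster. It held 130 cells, 96 of them from old control and 3 from young control, and 70.8% of its cells had Gzmk (975 CPM). Tigit was among its leading genes, and its markers were CD8 T-like. Another CD8 T-like subcluster of 52 cells, with Cx3cr1, a receptor of circulating effector cells, among its leading genes, had Gzma at 5636 CPM, Gzmb at 1431 CPM and Ccl5 at 39932 CPM, with Gzmk at 159.8 CPM. Eomes was at 206 CPM in the former and 14.5 CPM in the latter, while Tbx21 was at 95.2 and 298 CPM. Subclusters are a description of these cells and were not compared by test.

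In CD4 T cells, Gzmk was found in old control and not in young control. It had 124 UMIs in 17 of 69 old cells, 429 CPM, and 0 UMIs in 18 young cells, which is at least 10.6-fold higher in old with 3 counts in place of 0 over the young library (log2 ratio at least 3.40). The share of cells was 24.6% (15.1 to 36.5%) in old, and the 0 of 18 young cells allow a UMI in up to 16.7% by 3 counts, or 18.5% by the exact interval, which overlaps that of old. Young reload had 11 UMIs in 3 of 20 cells (159.9 CPM), while 11 cells of old HU and 9 of old reload had 0. Levels by library were thus highest in old control, with young reload next.

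Nkg7 and Ccl5 were also higher in CD4 T cells of old control. Nkg7 was at 40.5 CPM in young (3 UMIs) and 709 CPM in old (log2 ratio 4.13, 2.56 to 6.42, and 5.69, 3.19 to 10.997 without shared barcodes), and Ccl5 at 1228 CPM in young, with 85 of 91 UMIs in 1 cell, and 7789 CPM in old (2.67, 2.36 to 2.98). Gzmb had 27 UMIs in old, 14 of them in 1 cell, and 0 in young (at least 1.21). Its lowest bound under the alternative settings was 0.25, which is within 2-fold. Tbx21 (54.0 and 86.4 CPM, 0.68, −0.85 to 2.66) and Ifng (94.5 and 124 CPM, 0.40, −0.79 to 1.81) had intervals that included 0. Gzma, Prf1 and Eomes had 10, 3 and 16 UMIs in old and 0 in young, too few to compare. Of 6 measured members 4 were past 2-fold, all higher in old, against 22.3% of 2227 genes, of which 392 were higher and 105 lower.

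The 17 Gzmk-positive CD4 T cells of old control differed from the other 51 without shared barcodes in some genes, named here after their values had been seen. Eomes was in 70.6% of them and in 0 of the 51, Tox in 47.1% and 1.96%, and Gzmb in 35.3% and 5.88%. Foxp3, the factor of regulatory T cells, was in 0 of the 17 and in 7.84% of the others. Not every gene went the way it did in CD8 T cells with Gzmk. Ifng was at 44.9 CPM in the CD4 T cells with Gzmk and 157 CPM in the others (log2 ratio −1.81, −3.77 to −0.31), against −0.05 in CD8 T cells, and Bhlhe40 was at 247 and 385 CPM (−0.64, −1.40 to 0.06), against 1.26 (0.77 to 1.75) in CD8 T cells. These values come from 1 library and a single count is enough to call a cell positive.

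Of all 2227 genes measured in CD4 T cells of control, 22.3% were past 2-fold, 392 higher and 105 lower in old. The young side was 18 cells. Among list genes in this comparison, the naive and memory list had 0 higher and 6 lower of 11. The death ligand and inhibitor list had 3 higher of 3, effector regulators 3 of 6, repeated stimulation 3 of 5, homing and residence 1 of 4, and other granzymes and cytokine receptors 0 of 4 and 0 of 2. The digestion response had 3 of 6 lower, and NK receptor genes, cytokines and chemokines had 0 measured. The highest were the granzyme B inhibitor Serpinb9 (2.94, 0.35 to 8.29), the chemokine receptor Cxcr3 (2.89, 0.30 to 8.25) and Tigit (2.35, 1.27 to 3.69), and the lowest were Hspa1a (−5.66), Jun (−3.45) and Lef1 (−1.55, −2.31 to −0.77).

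Gamma delta T cells largely lacked the members. Gzmk had 0 UMIs in all 6 libraries, among them 155 cells of old control, which allows a UMI in up to 1.94% of those cells. Ccl5 had 158 UMIs in old control and 0 in 22 young cells (at least 3.17 on the log2 scale), but 152 of the UMIs were in 1 cell. In old reload, 87 Gzma UMIs and 203 Ccl5 UMIs were each in 1 of 18 cells. Of 2 measured members 1, Ccl5, was past 2-fold in control, against 18.3% of 3819 genes. After HU 0 members reached 20 UMIs, and 20.3% of 706 genes were past 2-fold.

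Age was tested across treatments where every library held at least 10 cells, which was so only for T and NK cells summed. With treatment as a block in edgeR's quasi-likelihood test, 0 of 9 members and 0% of 4958 genes passed an adjusted p of 0.05, while 4 members and 257 genes had an unadjusted p under 0.05. DESeq2 called 0 members and 1 gene, with 2 members and 89 genes at an unadjusted p under 0.05. Gzmk was at 14.2 and 151 CPM in young and old control, 10.5 CPM (1 UMI) and 55.5 CPM after HU, and 94.4 and 100.5 CPM at reload, where the interval of its log2 ratio of 0.09 included 0 (−0.67 to 0.87). Its log2 difference over the 3 pairs of libraries was 1.91 ± 0.50 (SE, old minus young, edgeR adjusted p = 0.513). Without the reload pair it was 3.24 (adjusted p = 4.902e-05), without the HU pair 1.84 (adjusted p = 0.380) and without the control pair 0.71 (adjusted p = 0.881). Each of these fits held 4 libraries, which leaves 1 residual degree of freedom. The difference was thus smallest without the control pair. Ccl5 differed by 0.79 ± 0.27 (adjusted p = 0.794), Prf1 by −0.70 ± 0.28 and Eomes by −0.89 ± 0.38 (both adjusted p = 0.888). The sum mixes classes whose shares differed by age, as 8.57% of kept cells were CD8 T cells in old control and 3.22% in young control, and the part of this in the differences was not tested.

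For CD8 T cells alone a fit of the 4 control and reload libraries was added after the data had been seen, which leaves 1 residual degree of freedom. Gzmk had the smallest p among members, with a log2 difference of 2.34 ± 0.57 over the 2 pairs of libraries (SE, edgeR adjusted p = 0.0814). Its level was higher in old in both treatments, but at reload it came from 3 young UMIs, with an interval of −0.57 to 3.53. Again 0 of 9 members and 0% of 1958 genes passed, with 2 members and 47 genes at an unadjusted p under 0.05. DESeq2 called 0 members and 0 genes, with 1 member and 8 genes at an unadjusted p under 0.05. Without shared barcodes Gzmk was the 1 gene called of 1884, at 2.502 ± 0.59 (adjusted p = 0.0485). Ifng differed by 1.36 ± 0.51 (adjusted p = 0.999), and by 2.14 ± 0.57 without shared barcodes (adjusted p = 0.151).

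Over the 18 sums of 1 class in 1 library with at least 10 cells, the genes most like Gzmk by Pearson's r of log2(CPM + 10) were Gtf2i (r = 0.776), Gm8369 (0.752), Pde4d (0.741), Gramd3 (0.710) and Prkcq (0.691), of 2118 genes with at least 200 UMIs. Among members r was highest for Ifng (0.486), Nkg7 (0.419) and Ccl5 (0.412), and was −0.026 for Gzma and −0.021 for Prf1. Points shared libraries and differed in depth, and the value is a description only.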

How the data were processed

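The deposited files held raw counts (UMIs per gene and barcode, not normalized), made by the authors with Cell Ranger 3.1.0 on mm10. Seurat was also named in the submitters' processing notes. Barcodes over 10% mitochondrial UMIs or under 200 genes were left out, and doublets scored with scrublet in scanpy 1.11.5 were removed at 0.8% per 1000 barcodes (340 marked, of which 296 had passed the other limits). Classes were gated on raw UMIs. After cells with a UMI of a myeloid, B, dendritic, mast or stromal gene were left out, T cells had at least 2 UMIs of Cd3d, Cd3e and Cd3g, and were split by Cd8a or Cd8b1, Cd4 and Trdc. NK cells had no Cd3 UMI and at least 2 UMIs of Ncr1, Klrb1c, Klre1 and Klra8, which group 1 innate lymphoid cells also meet.

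UMIs were summed per class and library and divided by the class total (CPM). Ratios needed at least 20 UMIs in the pair and were called past 2-fold. With 1 library per group, only the age fits over libraries (edgeR 4.0.16, TMM factors, Benjamini-Hochberg adjustment, and DESeq2 1.42.0 as an alternative) give p-values. The fit over 6 libraries leaves 2 residual degrees of freedom. Intervals are exact at 95% and cover counting error only, and a gene at 0 was set to 3 counts for a bound. The depth behind each value is its class total, from 4810 UMIs (CD4 T cells, young HU) to 963607 UMIs (CD8 T cells, old control). Steps were checked on simulated data. Values recomputed without shared barcodes, without the heat-shock subcluster or with another Cd4 and Cd8 limit, and the fit of CD8 T cells, were added after the data had been seen.

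Lymphoid cells were clustered in Seurat 5.3.0 (R 4.3.3, 20 principal components, resolution 1.2) without the members and other granzymes, and limits for naming subclusters were set after they were seen. Members, gates and gene lists were chosen with earlier results of these data known. All members are named, and of list genes at most 3 each way per comparison, plus the 5 most like Gzmk. Other genes are named as stated. Other tools were matplotlib 3.10.9, pandas 2.3.3, scipy 1.17.1, numpy 2.4.6 and Python 3.11.15.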

Additional observations from a re-analysis of the deposited data

Results flagged for a closer look

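Gzma in CD8 T cells went opposite ways by age in control and at reload, which drew attention because both intervals excluded 0. Its log2 ratio of old over young was −0.79 in control and 1.09 at reload. The difference between the treatments was not tested, since each group is 1 library, and 11 of the 12 young UMIs at reload were in 1 of 10 cells. Without the cell that held the most UMIs in each library the reload ratio was 4.08.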

How the results depend on the processing

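Of 462 recomputed ratios, shares and counts of called members, 406 stayed within the limits of the reported value, 56 moved beyond them, and 0 called values changed sign. Of 31 ratios, 25 kept their direction under every alternative. The exceptions were Gzma, Gzmb and Prf1 in CD8 T cells of control, Prf1 in NK cells, and Nkg7 and Ccl5 in CD8 T cells at reload, whose reported ratios were within 2-fold. A kept direction did not mean a kept size. In CD8 T cells of control the log2 ratio ran from 0.03 to 2.37 for Ifng and from 0.11 to 1.34 for Nkg7. For Gzma in NK cells of control (log2 ratio 0.20), named subclusters gave 0.38, mean UMIs per cell 0.36, and equal weight per cell and thinning to 1000 UMIs 0.29 each. Gzmk in CD8 T cells of control was 1.88 after thinning to 1000 UMIs. Its bound in CD4 T cells was 3.13 with TMM scaling and 3.13 without the top cell. The age fit of T and NK cells together called 1 member, Gzmk, with no filter on low counts and without the reload pair, and the CD8 T cell fit called 1, also Gzmk, with no filter, with no treatment block and without barcodes found in 2 libraries. Without the control pair Gzmk differed by 0.71 in the former (adjusted p = 0.881), and its adjusted p over the alternatives of that fit ran from 4.902e-05 to 1. The cause of these changes was not tested. Limits of 5% and 20% on mitochondrial UMIs, gates of at least 1 or 3 UMIs and no doublet removal moved 0 of the values they were run for, while a limit of 2 UMIs of Cd4 or of Cd8a and Cd8b1 moved 2 of 19.

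Separate age fits of NK, CD8 T, CD4 T and gamma delta T cells over 6 libraries were not run, since each class held fewer than 10 cells in at least 1 library. Groups of 10 to 20 cells set the precision of CD4 T cells of young control, CD8 T cells of young reload and NK cells of old HU.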
